A study of Rattus norvegicus with 12 samples.

Results

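The lactation effect 1 week after simulated birth injury (SBI) was taken as the contrast between 3 libraries of non-lactating rats (1wk SBI) and 3 libraries of lactating rats (1wk SBI + Lac), 6 of the 12 libraries of the series. The tissue was the pubocaudalis, one of the muscles of the pelvic floor, of which polyadenylated RNA was sequenced. The animals were female Sprague-Dawley rats, 3 months old and pregnant, and all of them received the injury on gestation day 20 as a balloon distention of the vagina and then delivered. After delivery the pups were taken away from one group and left to nurse in the other, so both groups shared pregnancy, injury and delivery and differed in nursing. No uninjured library was part of the series, and removal of the pups and absence of lactation cannot be told apart. Each library was a pool of RNA from 2 rats, so the 6 rats of a group gave n = 3, and p-values measure the spread between pools. Of the 30206 genes in the table, 14311 had enough counts to be tested and all of these made up the contrast.

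An injured skeletal muscle first fills with immune cells, among which macrophages clear debris and later carry lipid and iron out of the wound. Satellite cells, the stem cells of the muscle fiber, divide and fuse into new fibers that pass through embryonic and neonatal forms of the contractile proteins, while fibroblasts lay down collagen. In the nursing mother prolactin, oxytocin and glucocorticoids are released with suckling, and prolactin drives the milk protein genes of the mammary gland through the transcription factor STAT5. Which genes of the injured muscle differed with nursing was the question that this contrast addressed.

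The genes that were lower in lactating rats 1 week after SBI included genes of macrophages, antigen-presenting cells, matrix and cell division, and those that were higher included genes known to respond to glucocorticoids. With cutoffs of 0.05 for the adjusted p and of 1 for the size of the log2 fold change in either direction, 90 genes were lower in 1wk SBI + Lac, 0.629% of those tested, and 20 were higher, 0.140%, which makes 110 or 0.769%. A gene past both cutoffs is said below to be called. With the adjusted p alone 192 genes (1.34%) fell and 84 (0.587%) rose, 276 in all (1.93%), and 3409 (23.8%) had an unadjusted p under 0.05. The median log2 fold change of all genes tested was -0.01, and 51.0% of them were below 0. All 3 lactating pools were below all 3 non-lactating pools for 14.7% of the genes tested and above them for 14.1%, 28.8% in all, and these shares are the background against which the counts of gene lists are to be read. The lists were chosen with earlier results of these data known, so their counts are a description and not a test. Where no test is named, p-values are from the quasi-likelihood test of edgeR with Benjamini-Hochberg adjustment over all 14311 genes. Values are normalized CPM, counts scaled to the same library total in every pool and not divided by gene length, so levels are compared between groups and not between genes.

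**Figure D1:**
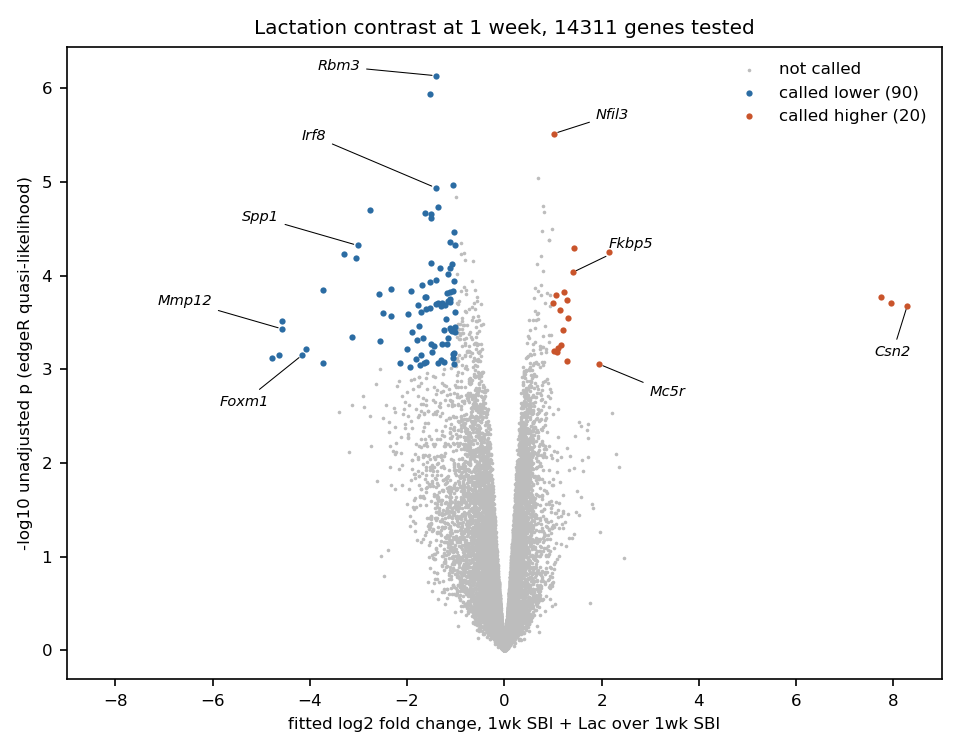
Each point is 1 of the 14311 genes tested, with the fitted log2 fold change of 1wk SBI + Lac over 1wk SBI on the x axis and -log10 of the unadjusted p on the y axis. The 90 genes called lower lie on the left in blue and the 20 called higher on the right in red, and the points near 8 are genes with 0 counts in every 1wk SBI pool, whose fitted fold has no meaning as a size.

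The number of calls depended on single pools. Total counts were 51662983, 45908424 and 41201635 in the 1wk SBI pools and 30862144, 31243010 and 39844090 in the 1wk SBI + Lac pools, so every non-lactating pool was the deeper, but thinning all 6 to the depth of the shallowest still gave 85 genes lower and 18 higher. On the first principal component, which held 45.9% of the variance, the scores were -40.0, -32.6 and -9.37 for 1wk SBI and 31.6, 39.6 and 10.8 for 1wk SBI + Lac, so the third pool of each group lay nearest to the other group. Without 1wk SBI replicate 3 there were 350 genes lower and 74 higher, and without 1wk SBI + Lac replicate 3 there were 149 and 23. Without 1wk SBI replicate 1 there were 2 and 1 and without replicate 2 there were 4 and 1. Without 1wk SBI + Lac replicate 1 or replicate 2 edgeR called 0 genes in both directions, at unadjusted p under 0.05 for 2551 and 2392 genes. The 110 genes called with all 6 pools had the same direction in each of these 6 fits. DESeq2 on the same pools called 288 lower and 44 higher and limma-voom called 37 and 17.

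**Figure D2:**
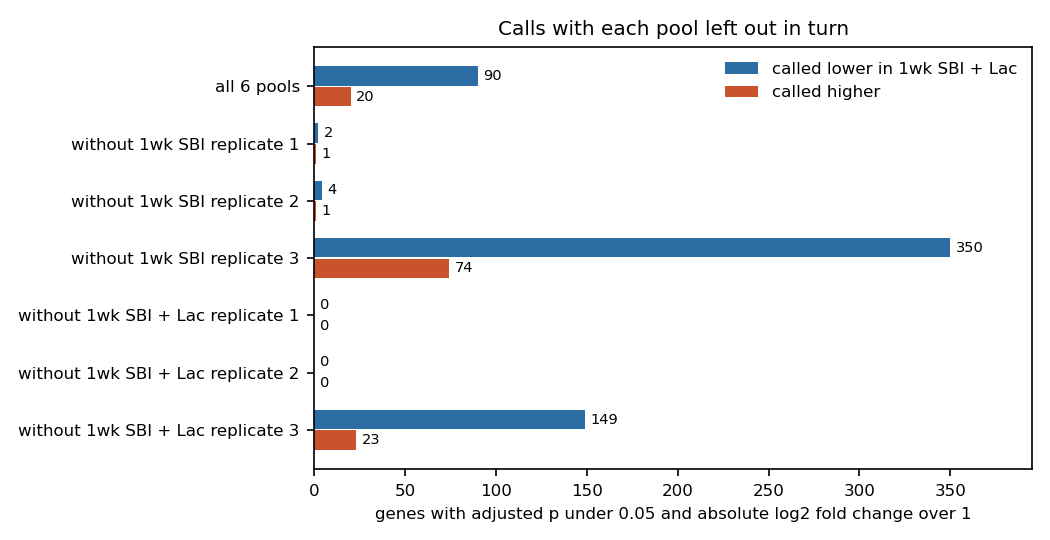
Bars show how many genes were called lower (blue) or higher (red) in 1wk SBI + Lac with all 6 pools and with each pool left out in turn. The counts run from 0 without 1wk SBI + Lac replicate 1 or 2 to 350 lower and 74 higher without 1wk SBI replicate 3.

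The label of the tissue was checked first. All 28 defining genes of the skeletal muscle fiber were tested, and their summed level was 153051 to 235249 normalized CPM in 1wk SBI and 235350 to 278696 in 1wk SBI + Lac. Skeletal actin, Acta1, alone had 27709, 25277 and 42005 normalized CPM in 1wk SBI and 46279.5, 45826 and 41474 in 1wk SBI + Lac. All 28 fiber genes had a log2 fold change above 0, with a median of 0.49 and a range from 0.19 to 0.89, and for 16 of them (57.1%) every lactating pool was the higher. In edgeR 0 of the 28 passed the adjusted p, 14 had an unadjusted p under 0.05, DESeq2 passed 15 and limma-voom 0. With each pool left out in turn edgeR passed 0 to 18, the highest without 1wk SBI replicate 3. The gene nearest to the threshold was Myoz2, which ties calcineurin to the Z-disc, with 148, 162 and 209 normalized CPM in 1wk SBI and 244, 322 and 268 in 1wk SBI + Lac (log2 fold change 0.69, SE 0.16, adjusted p = 0.0591, edgeR). Muscle creatine kinase, Ckm, stood at 11385, 11205 and 18313 normalized CPM in 1wk SBI and 21883, 21068 and 17949.7 in 1wk SBI + Lac. In these bulk samples, fewer cells of a type and less RNA per cell cannot be told apart, and the highest summed level of the fiber genes in 1wk SBI was close to the lowest in 1wk SBI + Lac. The part of these fiber levels in the lower values given below was not tested.

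The gene with the smallest p of the contrast was Rbm3 (ENSRNOG00000005387), an RNA-binding protein induced by mild cold. It had 63.8, 74.5 and 56.6 normalized CPM in 1wk SBI and 21.9, 24.5 and 27.3 in 1wk SBI + Lac (log2 fold change -1.40, SE 0.12, adjusted p = 0.00825, edgeR). All 3 lactating pools were far below the lowest non-lactating pool. Rbm3 passed both cutoffs without any one non-lactating pool and without 1wk SBI + Lac replicate 3, and its adjusted p was 0.0547 and 0.0808 without replicates 1 and 2 of that group. Cirbp, the close relative of Rbm3 that cold induces as well, had 32.8, 36.9 and 28.8 normalized CPM in 1wk SBI and 31.7, 26.2 and 30.3 in 1wk SBI + Lac (log2 fold change -0.16, SE 0.12, adjusted p = 0.423, edgeR). The pools of the groups overlapped for Cirbp. In the list of 37 heat shock, cold shock and unfolded protein genes, which had a median of 0.02, Rbm3 was the only member that fell and Cryab, the small heat shock protein of the sarcomere, the only one that rose. Cryab had 481, 617 and 658 normalized CPM in 1wk SBI and 1233, 949.7 and 996 in 1wk SBI + Lac (log2 fold change 0.86, SE 0.17, adjusted p = 0.0443, edgeR).

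Macrophage genes mostly had lower values in lactating rats. Of 26 macrophage and monocyte markers tested, 24 were below 0, the median was -0.58, and every lactating pool was below every non-lactating pool for 13 of them, against 14.7% of all genes. The summed level of the list was 782 to 880 normalized CPM in 1wk SBI and 506 to 721 in 1wk SBI + Lac. Cd68, Laptm5 and Aif1 passed the adjusted p and 0 of the list were called, whereas DESeq2 called 2, limma-voom 0 and edgeR with a pool left out 0 to 4. Cd68, a lysosomal membrane protein of macrophages, had 36.2, 29.0 and 29.3 normalized CPM in 1wk SBI and 17.3, 12.6 and 18.3 in 1wk SBI + Lac (log2 fold change -0.97, SE 0.15, adjusted p = 0.033, edgeR). In stained sections of this muscle at the same time, the paper reports no significant group difference in CD68+ or CD163+ cells. It reports CD45+ cells at the level of uninjured controls in lactating rats and above that level in non-lactating rats. Those are counts of stained cells and not RNA levels. Csf1r, the receptor for the growth factor on which macrophages depend, had 95.9, 90.4 and 78.4 normalized CPM in 1wk SBI and 69.8, 57.1 and 85.6 in 1wk SBI + Lac, and its groups overlapped. Lyve1, carried by resident macrophages and by lymphatic vessels, was on the other side with 17.1, 17.4 and 14.6 normalized CPM in 1wk SBI and 20.5, 21.1 and 30.1 in 1wk SBI + Lac (log2 fold change 0.55, SE 0.15, adjusted p = 0.0857, edgeR).

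Genes of lipid handling and of the wound macrophage were lower in part. Of 19 such genes tested 17 were below 0, the median was -0.63, 12 (63.2%) did not overlap, and 5 were called lower, Gpnmb, Spp1, Apoe, Clec7a and Mmp12. Spp1 (ENSRNOG00000043451), which encodes osteopontin, a secreted phosphoprotein of wound macrophages, had 30.6, 61.0 and 31.2 normalized CPM in 1wk SBI and 4.88, 3.80 and 6.36 in 1wk SBI + Lac (log2 fold change -3.01, SE 0.34, adjusted p = 0.0297, edgeR). All 3 non-lactating pools were far above the lactating ones, and 1wk SBI replicate 2 stood highest. Gpnmb (ENSRNOG00000008816), a glycoprotein of the lysosome, had 146, 232 and 144 normalized CPM in 1wk SBI and 49.0, 57.8 and 62.5 in 1wk SBI + Lac (log2 fold change -1.62, SE 0.20, adjusted p = 0.0241, edgeR). Apoe, which carries cholesterol out of the cell, had 937, 875 and 859 normalized CPM in 1wk SBI and 304, 355 and 519 in 1wk SBI + Lac (log2 fold change -1.18, SE 0.20, adjusted p = 0.033, edgeR). Abcg1, a sterol exporter that is no member of the list, was called as well with 38.8, 34.9 and 28.0 normalized CPM in 1wk SBI and 15.1, 16.7 and 17.1 in 1wk SBI + Lac (log2 fold change -1.06, SE 0.13, adjusted p = 0.0241, edgeR). Mmp12, the elastase of macrophages, was a rare transcript with 0.536, 0.986 and 0.990 normalized CPM in 1wk SBI and 0.106, 0 and 0 in 1wk SBI + Lac, so the size of its change is poorly set. Hmox1, which breaks down heme, passed the adjusted p with 12.2, 15.1 and 13.7 normalized CPM in 1wk SBI and 6.01, 6.36 and 9.17 in 1wk SBI + Lac (log2 fold change -0.92, SE 0.17, adjusted p = 0.0384, edgeR), and Trem2, a lipid receptor, did not with 8.96, 7.30 and 9.75 normalized CPM in 1wk SBI and 3.75, 3.87 and 6.52 in 1wk SBI + Lac (log2 fold change -0.87, SE 0.22, adjusted p = 0.0712, edgeR).

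The promoter of Gpnmb is shown because Gpnmb had the smallest p of these macrophage genes and its sequence carries letters bound by factors known to drive lysosomal and macrophage genes. RefSeq places the 250 bases before its start on the plus strand of the GRCr8 build at chr4:79340878-79341127. Capitals mark TGAGTCA, the AP-1 site, whose first base is 87 bases before the start, and CATGTG, the M-box read by MITF and TFEB, which stands here on the other strand as CACATG, 22 bases before the start.
Gpnmb: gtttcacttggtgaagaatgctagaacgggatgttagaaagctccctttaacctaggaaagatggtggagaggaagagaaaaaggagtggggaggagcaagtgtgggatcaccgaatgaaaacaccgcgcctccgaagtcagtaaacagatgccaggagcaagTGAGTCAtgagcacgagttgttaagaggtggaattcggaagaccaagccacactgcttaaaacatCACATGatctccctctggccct
Both strands were searched and the matches did not overlap. TGAGTCA occurred in 4.05% and CATGTG in 12.1% of the 33469 rat promoters of the same length, and binding was not measured. Of the 59 genes called lower that had a promoter, 4 held TGAGTCA and 7 held CATGTG.

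**Figure D3:**
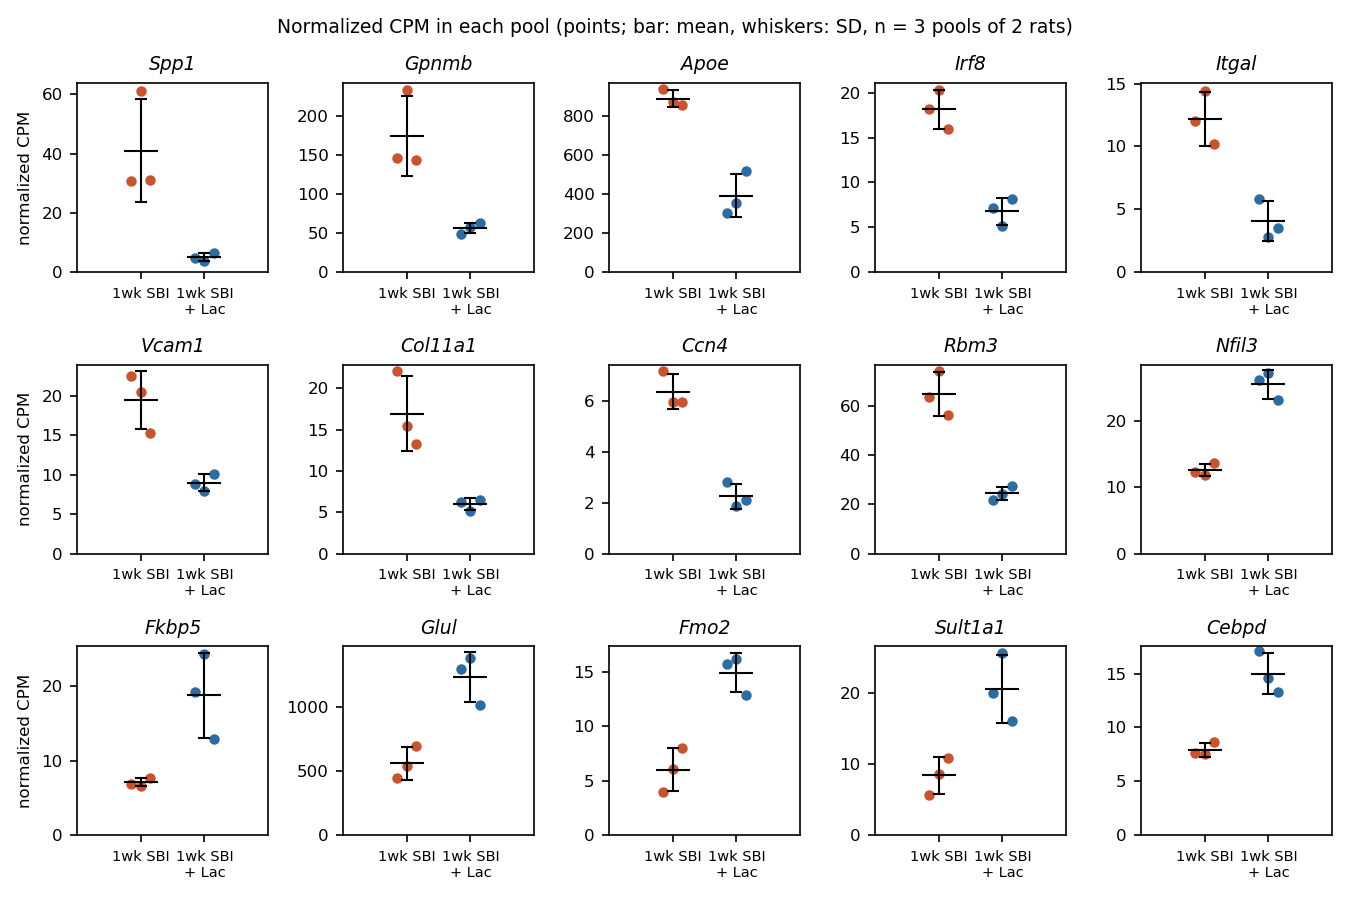
Normalized CPM of 15 genes in each pool, with 1wk SBI in red and 1wk SBI + Lac in blue, and bars and whiskers for the mean and SD of 3 pools. The 9 genes from Spp1 to Rbm3 are lower and the 6 from Nfil3 to Cebpd higher in every lactating pool.

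Dendritic cell genes and the class II antigen presentation genes were lower too. Of 16 dendritic cell markers, 15 were below 0 with a median of -1.03, and 4 fell, of which Irf8 and Cd83 were called. The groups did not overlap for 13 (81.2%, against 14.7% of all genes) on that side and for 1 (6.25%) on the other. The summed level of the dendritic cell list nevertheless overlapped, at 318 to 335 normalized CPM in 1wk SBI and 290 to 337 in 1wk SBI + Lac. Irf8 (ENSRNOG00000017869), the transcription factor of monocytes and dendritic cells, had 18.2, 20.3 and 15.9 normalized CPM in 1wk SBI and 7.11, 5.11 and 8.12 in 1wk SBI + Lac (log2 fold change -1.41, SE 0.17, adjusted p = 0.0241, edgeR). Clec4a3 and Clec4a1, C-type lectins of antigen-presenting cells, fell with log2 fold changes of -0.93 and -0.87. All 15 class II presentation genes were below 0, with a median of -0.65, and 10 (66.7%) did not overlap. RT1-Db1, RT1-Ba and RT1-Bb, chains of the class II molecules, passed the adjusted p and not the fold cutoff. RT1-Db1 had 68.8, 77.0 and 66.1 normalized CPM in 1wk SBI and 48.1, 38.8 and 46.2 in 1wk SBI + Lac (log2 fold change -0.67, SE 0.11, adjusted p = 0.033, edgeR). Ciita, the activator of the class II genes, had 6.51, 7.67 and 5.61 normalized CPM in 1wk SBI and 3.99, 3.03 and 5.05 in 1wk SBI + Lac (log2 fold change -0.71, SE 0.21, adjusted p = 0.0925, edgeR), and Cd74, the invariant chain, had 302, 328 and 273 normalized CPM in 1wk SBI and 236, 176 and 249.8 in 1wk SBI + Lac (log2 fold change -0.45, SE 0.15, adjusted p = 0.12, edgeR). The pools did not overlap for either gene.

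Lymphocyte genes had few calls. Of 21 T cell genes 19 were below 0 with a median of -0.87, but edgeR passed 0, 6 had an unadjusted p under 0.05, DESeq2 passed 4 and limma-voom 0. The median was -0.52 without 1wk SBI replicate 2. Cd28, the costimulatory receptor of T cells, had 25.5, 13.2 and 12.0 normalized CPM in 1wk SBI and 10.4, 4.93 and 8.04 in 1wk SBI + Lac (log2 fold change -1.12, SE 0.37, adjusted p = 0.132, edgeR). Cd3e, part of the T cell receptor complex, had 0.433, 1.00 and 0.102 normalized CPM in 1wk SBI and 0.283, 0.0365 and 0.129 in 1wk SBI + Lac, and the groups overlapped. Foxp3, the factor of regulatory T cells, had the largest value above 0, with 0.657, 0.967 and 1.75 normalized CPM in 1wk SBI and 2.69, 2.37 and 1.49 in 1wk SBI + Lac (log2 fold change 0.97, SE 0.39, adjusted p = 0.173, edgeR). Among natural killer cell genes Klrd1, a lectin receptor, was the 1 of 10 called, with 0.415, 0.821 and 0.762 normalized CPM in 1wk SBI and 0.0354, 0.0731 and 0.103 in 1wk SBI + Lac (log2 fold change -3.13, SE 0.60, adjusted p = 0.0398, edgeR). Ly49si2, of the Ly49 family of natural killer cell receptors and in no list, had the second smallest p of the contrast, with 9.17, 10.6 and 9.57 normalized CPM in 1wk SBI and 3.04, 3.62 and 3.53 in 1wk SBI + Lac (log2 fold change -1.53, SE 0.14, adjusted p = 0.00825, edgeR). The Ly49 genes are near-identical copies between which reads may be divided, which leaves its value uncertain. Of 6 genes of B and plasma cells, Sdc1, a proteoglycan that plasma cells and epithelium carry, and Jchain, the joining chain of secreted antibodies, were called. Jchain had 2.44, 3.52 and 2.82 normalized CPM in 1wk SBI and 0.884, 0.584 and 1.19 in 1wk SBI + Lac (log2 fold change -1.70, SE 0.30, adjusted p = 0.0341, edgeR). The neutrophil and mast cell list, 12 genes with a median of -0.13, had 1 call, Mmp9, at 0.294, 1.33 and 0.584 normalized CPM in 1wk SBI and 0.0707, 0.0365 and 0.0515 in 1wk SBI + Lac. On the other side Tpsab1 and Tpsb2, genes of mast cells, had log2 fold changes of 0.67 and 0.64 (adjusted p = 0.187 and 0.199, edgeR). Every lactating pool was the higher for these 2 (16.7% of the list) and the lower for 2 as well.

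Some adhesion molecules of leukocytes fell, while chemokines and interleukins did not pass. Of 37 integrins, selectins and adhesion partners, 28 were below 0, 5 fell and 3 of these were called, Vcam1, Itgal and Itgb2. Itgal and Itgb2 are the chains of the integrin LFA-1. Itgal had 12.0, 14.5 and 10.2 normalized CPM in 1wk SBI and 5.83, 2.78 and 3.50 in 1wk SBI + Lac (log2 fold change -1.60, SE 0.26, adjusted p = 0.033, edgeR). Vcam1, the vascular ligand of another leukocyte integrin that myoblasts carry as well, had 22.6, 20.6 and 15.3 normalized CPM in 1wk SBI and 8.87, 8.00 and 10.1 in 1wk SBI + Lac (log2 fold change -1.11, SE 0.16, adjusted p = 0.0297, edgeR). Cd44, a receptor for hyaluronan, and Selplg, the ligand of P-selectin, passed the adjusted p with log2 fold changes of -0.60 and -0.87. C3ar1, the receptor for a complement fragment, and Itgb2 were called and C6, a part of the lytic complex, passed the adjusted p alone, in a list of 25 complement genes with a median of -0.36. C3ar1 had 12.5, 10.4 and 8.56 normalized CPM in 1wk SBI and 5.30, 3.76 and 5.44 in 1wk SBI + Lac (log2 fold change -1.11, SE 0.19, adjusted p = 0.033, edgeR).

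Of 39 chemokines and their receptors 27 were below 0 with a median of -0.55 and 11 (28.2%) did not overlap on that side. In edgeR 0 passed, 18 had an unadjusted p under 0.05, DESeq2 passed 10 and limma-voom 0. Ccr9, a homing receptor of lymphocytes, was nearest with 0.554, 1.10 and 0.686 normalized CPM in 1wk SBI and 0.106, 0.183 and 0.206 in 1wk SBI + Lac (log2 fold change -2.20, SE 0.50, adjusted p = 0.058, edgeR). Of 38 interleukins and receptors edgeR again passed 0, 12 had an unadjusted p under 0.05, DESeq2 passed 3 and limma-voom 0, with a median of -0.32. Il15, a cytokine that muscle fibers release, had 5.29, 8.18 and 11.4 normalized CPM in 1wk SBI and 18, 20.3 and 14.6 in 1wk SBI + Lac (log2 fold change 1.10, SE 0.26, adjusted p = 0.0648, edgeR). The 3 lactating pools were the highest for Il15. The 45 interferon-stimulated genes had a median of -0.14 with 0 past edgeR's adjusted p, 3 at an unadjusted p under 0.05, 2 by DESeq2 and 0 by limma-voom. Their median moved to -0.66 without 1wk SBI + Lac replicate 1.

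Matrix genes were lower in part. Of 39 collagen chains 28 were below 0 with a median of -0.57 and 13 (33.3%) did not overlap on that side, Col11a1 and Col26a1 were called lower, and Col4a4, a basement membrane chain, passed the adjusted p on the other side with 10.8, 12.1 and 13.3 normalized CPM in 1wk SBI and 17.5, 18.7 and 18.5 in 1wk SBI + Lac (log2 fold change 0.60, SE 0.11, adjusted p = 0.0358, edgeR). Col11a1 (ENSRNOG00000023148), a chain of a minor fibrillar collagen, had 22.1, 15.5 and 13.3 normalized CPM in 1wk SBI and 6.29, 5.11 and 6.49 in 1wk SBI + Lac (log2 fold change -1.50, SE 0.20, adjusted p = 0.0249, edgeR). The chains of type I collagen did not pass. Col1a1 had 2992, 2223 and 1907 normalized CPM in 1wk SBI and 786, 1052 and 1876 in 1wk SBI + Lac (log2 fold change -0.94, SE 0.32, adjusted p = 0.129, edgeR), and the lowest non-lactating pool and the highest lactating pool were nearly level. Among 52 matrix proteases, inhibitors and cross-linking enzymes, 39 were below 0 with a median of -0.32 and 17 (32.7%) did not overlap on that side. Mmp12 and Mmp9 were called and Mmp19 passed the adjusted p alone. Mmp14, the membrane-bound collagenase, had 159, 144 and 114 normalized CPM in 1wk SBI and 56.2, 59.2 and 96.0 in 1wk SBI + Lac (log2 fold change -0.98, SE 0.22, adjusted p = 0.0602, edgeR).

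Genes of the activated fibroblast were lower in part as well. Of 43 fibroblast genes 34 were below 0 with a median of -0.26. The groups did not overlap for 11 (25.6%) on that side and for 3 (6.98%) on the other. Ccn4, a matricellular protein, was the 1 called. It had 7.16, 5.97 and 5.97 normalized CPM in 1wk SBI and 2.79, 1.86 and 2.09 in 1wk SBI + Lac (log2 fold change -1.50, SE 0.20, adjusted p = 0.0241, edgeR). Tnn, a tenascin, had a large difference and a wide spread with 14.5, 29.1 and 11.0 normalized CPM in 1wk SBI and 0.672, 1.46 and 3.81 in 1wk SBI + Lac (log2 fold change -3.14, SE 0.64, adjusted p = 0.0639, edgeR). Adam12, a protease of fusing and fibrogenic cells, had 56.2, 34.1 and 31.2 normalized CPM in 1wk SBI and 8.38, 9.42 and 19.9 in 1wk SBI + Lac (log2 fold change -1.68, SE 0.39, adjusted p = 0.079, edgeR). DESeq2 called 8 genes of this list, limma-voom 1 and edgeR with a pool left out 0 to 7. Outside the lists, Prss35, Podnl1 and Megf6, all extracellular proteins, were among the 10 largest falls of called genes with a symbol, at least 1 CPM in a group and no overlap, with log2 fold changes of -2.34, -2.32 and -2.13. The other large falls in that set outside the lists were LOC103690642 (-3.74), AABR07043711.1 (-2.57), Plekhg4 (-2.56), the transcription factor Sox8, and Dbf4, the partner of the kinase that fires replication origins (-1.98). Called entries with no symbol or under 1 CPM in both groups are not in that set, and among the former ENSRNOG00000066013 had 1.11, 0.913 and 1.22 normalized CPM in 1wk SBI and 0.177, 0.0731 and 0.129 in 1wk SBI + Lac (log2 fold change -3.06, SE 0.46, adjusted p = 0.0308, edgeR) and ENSRNOG00000063720 had 2.84, 2.94 and 2.16 normalized CPM in 1wk SBI and 0.495, 0.183 and 0.464 in 1wk SBI + Lac (log2 fold change -2.77, SE 0.36, adjusted p = 0.0241, edgeR). The groups did not overlap for these 2 entries either.

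Cell division genes mostly had lower values in lactating rats. Of 56 genes of mitosis and DNA replication 53 were below 0, the median was -1.13, and 32 (57.1%) did not overlap on that side. Foxm1, Ccne2 and E2f8 were called, DESeq2 called 15 and limma-voom 1. With each pool left out edgeR called 0 to 16 of them, the highest without 1wk SBI replicate 3. Ccne2, a cyclin of the entry into S phase, had 3.41, 3.54 and 2.36 normalized CPM in 1wk SBI and 1.41, 0.913 and 1.44 in 1wk SBI + Lac (log2 fold change -1.30, SE 0.27, adjusted p = 0.047, edgeR). E2f8, a repressor of the E2F family, had 3.10, 1.84 and 1.37 normalized CPM in 1wk SBI and 0.495, 0.694 and 0.696 in 1wk SBI + Lac (log2 fold change -1.74, SE 0.37, adjusted p = 0.0484, edgeR). Foxm1, a driver of mitotic genes, was rare with 0.467, 0.365 and 0.432 normalized CPM in 1wk SBI and 0, 0 and 0.0515 in 1wk SBI + Lac. Mki67, the usual marker of dividing cells, had 19.3, 10.3 and 10.7 normalized CPM in 1wk SBI and 3.39, 4.68 and 6.31 in 1wk SBI + Lac (log2 fold change -1.48, SE 0.30, adjusted p = 0.0534, edgeR), just outside the cutoff. Plk4 and Kif4a, a kinase of the centriole and a kinesin of the spindle, were called without being in the list at log2 fold changes of -1.71 and -1.62. Which cells divided is not given by these libraries.

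The replication-dependent histones did not go with the division genes. Of 13 entries 10 were above 0, the median was 0.42, and 1 entry of Hist1h4m was called higher with 1.38, 1.75 and 1.85 normalized CPM in 1wk SBI and 4.63, 4.93 and 3.92 in 1wk SBI + Lac (log2 fold change 1.43, SE 0.21, adjusted p = 0.03, edgeR). A pair of further entries carries the same symbol, and reads may be divided among such copies, which leaves the value uncertain. Libraries of polyadenylated RNA hold these transcripts only in part, since most histone messages lack the tail.

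Genes of the regenerating fiber mostly had lower values. Of 26 such genes 21 were below 0 with a median of -0.87, 11 (42.3%) did not overlap on that side, and Vcam1 and Megf10 were called. Megf10, a receptor of satellite cells that keeps them dividing, had 14.4, 10.4 and 12.1 normalized CPM in 1wk SBI and 4.42, 6.68 and 5.54 in 1wk SBI + Lac (log2 fold change -1.15, SE 0.18, adjusted p = 0.033, edgeR). Neonatal and embryonic myosin, Myh8 and Myh3, had wide spreads. Myh8 had 1794, 511 and 684 normalized CPM in 1wk SBI and 191, 237 and 327 in 1wk SBI + Lac (log2 fold change -1.98, SE 0.49, adjusted p = 0.0834, edgeR). Myh3 had 1561, 763 and 1008 normalized CPM in 1wk SBI and 465, 481 and 825 in 1wk SBI + Lac (log2 fold change -0.91, SE 0.31, adjusted p = 0.132, edgeR). The pools of the groups overlapped for Myh3 and not for Myh8. Cardiac actin, Actc1, which regenerating fibers express for a time, had 2308, 1026 and 1145 normalized CPM in 1wk SBI and 444, 579 and 662 in 1wk SBI + Lac (log2 fold change -1.41, SE 0.32, adjusted p = 0.0602, edgeR). Mymk, the membrane protein needed for myoblast fusion, had 60.0, 27.8 and 15.3 normalized CPM in 1wk SBI and 11.1, 8.15 and 11.4 in 1wk SBI + Lac (log2 fold change -1.75, SE 0.51, adjusted p = 0.118, edgeR).

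The regulators of the satellite cell did not move alike. Pax7, which marks the satellite cell, had 7.63, 4.62 and 5.51 normalized CPM in 1wk SBI and 1.84, 3.65 and 3.17 in 1wk SBI + Lac (log2 fold change -1.03, SE 0.27, adjusted p = 0.0763, edgeR), and Myf5 had 8.82, 5.68 and 5.26 normalized CPM in 1wk SBI and 3.61, 3.10 and 3.40 in 1wk SBI + Lac (log2 fold change -0.97, SE 0.22, adjusted p = 0.0558, edgeR). Myod1, the factor of the committed myoblast, had 34.5, 43.7 and 29.9 normalized CPM in 1wk SBI and 42.0, 38.6 and 30.5 in 1wk SBI + Lac, with groups that overlapped and a log2 fold change of 0.04. Myog, the factor of the differentiating myoblast, had 93.3, 113 and 57.4 normalized CPM in 1wk SBI and 59.1, 52.7 and 61.9 in 1wk SBI + Lac (log2 fold change -0.60, SE 0.22, adjusted p = 0.15, edgeR). DESeq2 called 7 genes of the regenerating fiber list and limma-voom 2, and edgeR with a pool left out called 0 to 7, the highest without 1wk SBI replicate 3. Of 24 genes of denervation and the neuromuscular junction 19 were below 0 with a median of -0.47, and edgeR passed 0, 7 had an unadjusted p under 0.05, DESeq2 passed 1 and limma-voom 0. Chrna1, a subunit of the acetylcholine receptor that spreads along regenerating or denervated fibers, had 195, 227 and 47.6 normalized CPM in 1wk SBI and 104, 46.2 and 50.7 in 1wk SBI + Lac, so 1wk SBI replicate 3 lay with the lactating pools.

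**Figure D4:**
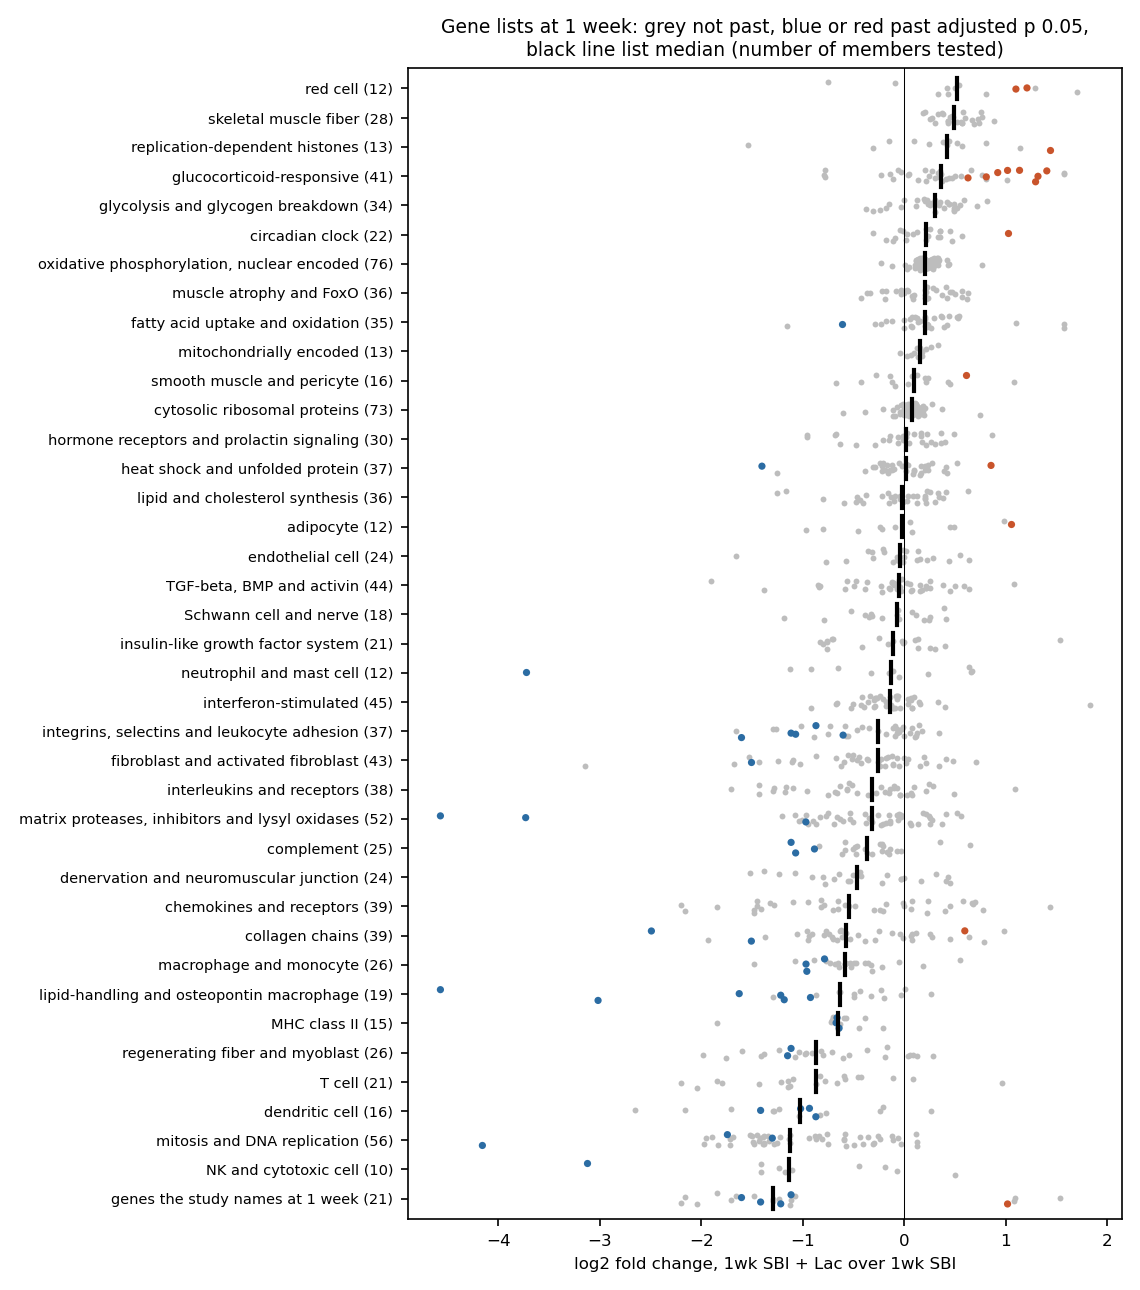
Log2 fold change of 1wk SBI + Lac over 1wk SBI for the tested members of each gene list with at least 10 of them, ordered by the list median (black line). Lowest are the genes the study names with a median of -1.29, NK and cytotoxic cell with -1.14, mitosis and DNA replication with -1.13 and dendritic cell with -1.03, and highest are red cell with 0.52, skeletal muscle fiber with 0.49, replication-dependent histones with 0.42 and glucocorticoid-responsive with 0.37, while colored points, past the adjusted p, are a minority in every list.

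Genes that glucocorticoids are known to raise made up 5 of the 20 called higher. Of 41 genes in the list 33 were above 0 with a median of 0.37, 17 (41.5%, against 14.1% of all genes) did not overlap on that side, 8 rose and 5 were called, Nfil3, Fkbp5, Glul, Fmo2 and Sult1a1. This list too was chosen with earlier results of these data known, so its counts are a description. Nfil3 (ENSRNOG00000011668), a transcriptional repressor that is also part of the clock, had 12.2, 11.8 and 13.6 normalized CPM in 1wk SBI and 26.2, 27.2 and 23 in 1wk SBI + Lac (log2 fold change 1.02, SE 0.11, adjusted p = 0.0146, edgeR). Fkbp5, a cochaperone that holds the glucocorticoid receptor back, had 6.92, 6.63 and 7.69 normalized CPM in 1wk SBI and 19.2, 24.3 and 12.9 in 1wk SBI + Lac (log2 fold change 1.41, SE 0.21, adjusted p = 0.033, edgeR). Glul, which makes glutamine in muscle, had 444, 542 and 697 normalized CPM in 1wk SBI and 1300.2, 1386 and 1015 in 1wk SBI + Lac (log2 fold change 1.14, SE 0.20, adjusted p = 0.0339, edgeR). The lowest lactating pool was above the highest non-lactating pool for all of these. Cebpd, Nfkbia and Tsc22d3 passed the adjusted p alone with log2 fold changes of 0.92, 0.63 and 0.81. Tsc22d3, which encodes the glucocorticoid-induced leucine zipper, had 50.3, 66.4 and 79.3 normalized CPM in 1wk SBI and 127, 117 and 99.2 in 1wk SBI + Lac (log2 fold change 0.81, SE 0.17, adjusted p = 0.0475, edgeR).

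Other known targets of the hormone did not pass. Per1 had 13.2, 18.7 and 32.9 normalized CPM in 1wk SBI and 31.6, 23.4 and 26.6 in 1wk SBI + Lac and its groups overlapped. Klf15, a regulator of amino acid use, had 17.3, 23.9 and 28.6 normalized CPM in 1wk SBI and 45.5, 41.6 and 31.5 in 1wk SBI + Lac (log2 fold change 0.77, SE 0.20, adjusted p = 0.0785, edgeR), and Zbtb16 had 7.47, 7.70 and 13.6 normalized CPM in 1wk SBI and 20.1, 22.1 and 15.5 in 1wk SBI + Lac (log2 fold change 1.01, SE 0.24, adjusted p = 0.0673, edgeR). The receptor itself, Nr3c1, had 132, 128 and 130.1 normalized CPM in 1wk SBI and 142, 129 and 134 in 1wk SBI + Lac, which overlapped. For serum corticosterone the paper reports group differences mainly after weaning, a later time than that of these libraries. It reports no significant difference on the day after the pups were removed. Whether the level of the hormone had a part in these RNA values was not tested. With each pool left out edgeR passed 0 to 21 of the 41 at the adjusted p and called 0 to 8, the highest without 1wk SBI replicate 3. DESeq2 passed 15 and called 7 and limma-voom passed 6 and called 5. Of 36 genes of muscle atrophy and the FoxO factors 26 were above 0 with a median of 0.21, and edgeR passed 0, 12 had an unadjusted p under 0.05, DESeq2 passed 5 and limma-voom 0. The ubiquitin ligases of atrophy, Trim63 and Fbxo32, had log2 fold changes of 0.21 and 0.38 with groups that overlapped. The circadian clock list of 22 genes had a median of 0.22 and Nfil3 as its 1 call.

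Fuel genes mostly had log2 fold changes above 0, but every lactating pool was the higher for a smaller share of them than of all genes. Of 76 nuclear genes of oxidative phosphorylation 74 were above 0 with a median of 0.21, yet 4 (5.26%, against 14.1% of all genes) did not overlap on that side and edgeR passed 0, with 9 at an unadjusted p under 0.05, 0 by DESeq2 and 0 by limma-voom. With a pool left out edgeR passed 0 to 26, the highest without 1wk SBI replicate 3. The 13 mitochondrially encoded genes had a median of 0.15 that became 0.00 without 1wk SBI + Lac replicate 2. The groups overlapped for all 13, and edgeR, DESeq2 and limma-voom passed 0 of them, with 0 at an unadjusted p under 0.05. Of 34 genes of glycolysis and glycogen breakdown 28 were above 0 with a median of 0.31, 2 (5.88%) did not overlap on that side, and edgeR passed 0, with 7 at an unadjusted p under 0.05, 3 by DESeq2 and 0 by limma-voom. Of 35 genes of fatty acid use 27 were above 0 and 4 (11.4%) did not overlap on that side. Among these 35 Ucp2, a mitochondrial carrier that macrophages also express, fell with 28.3, 31.3 and 32.3 normalized CPM in 1wk SBI and 17.6, 21.6 and 21.1 in 1wk SBI + Lac (log2 fold change -0.61, SE 0.11, adjusted p = 0.0338, edgeR). Pdk4, which spares glucose, had 62.5, 109.9 and 210.0 normalized CPM in 1wk SBI and 430.4, 506 and 199.9 in 1wk SBI + Lac (log2 fold change 1.57, SE 0.53, adjusted p = 0.146, edgeR). 1wk SBI replicate 3 and 1wk SBI + Lac replicate 3 were nearly level for Pdk4. Of 36 genes of lipid and cholesterol synthesis edgeR passed 0, 11 had an unadjusted p under 0.05, DESeq2 passed 6 and limma-voom 0. The desaturase Scd had 895, 535 and 386 normalized CPM in 1wk SBI and 245, 239 and 277 in 1wk SBI + Lac (log2 fold change -1.26, SE 0.28, adjusted p = 0.0594, edgeR).

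Signals of growth and of the hormones of lactation gave no call in edgeR with all 6 pools. Of 21 genes of the insulin-like growth factor system edgeR passed 0, 9 had an unadjusted p under 0.05, DESeq2 passed 4 and limma-voom 0. Igfbp5, a binding protein abundant in muscle, had 2944, 2097 and 1789 normalized CPM in 1wk SBI and 1320.4, 1414 and 1199 in 1wk SBI + Lac (log2 fold change -0.80, SE 0.21, adjusted p = 0.0705, edgeR). Igf1 had 125, 121 and 68.0 normalized CPM in 1wk SBI and 49.7, 57.2 and 78.6 in 1wk SBI + Lac (log2 fold change -0.76, SE 0.26, adjusted p = 0.14, edgeR), with groups that overlapped. Of 30 hormone receptors and genes of prolactin signaling edgeR passed 0, 9 had an unadjusted p under 0.05, DESeq2 passed 4 and limma-voom 0. The prolactin receptor, Prlr, was near the limit of detection in this muscle with 0.0865, 0.493 and 0.305 normalized CPM in 1wk SBI and 0.318, 0.475 and 0.129 in 1wk SBI + Lac. Cish, an inhibitor that STAT5 induces, had 13.6, 16.1 and 12.5 normalized CPM in 1wk SBI and 8.20, 8.84 and 4.82 in 1wk SBI + Lac (log2 fold change -0.96, SE 0.21, adjusted p = 0.0582, edgeR), and Stat5b had 87.3, 93.3 and 81.8 normalized CPM in 1wk SBI and 121, 109 and 107 in 1wk SBI + Lac (log2 fold change 0.36, SE 0.10, adjusted p = 0.078, edgeR). The groups did not overlap for Cish or Stat5b. Of 44 genes of the TGF-beta, BMP and activin families edgeR passed 0, 12 had an unadjusted p under 0.05, DESeq2 passed 6 and called 1 and limma-voom passed 0, with a median of -0.05. Without 1wk SBI replicate 3 edgeR called 2 genes in each of these 3 lists.

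Cells of vessels, nerve and fat showed few differences. The 24 endothelial genes had a median of -0.04 with 0 past edgeR's adjusted p, 8 at an unadjusted p under 0.05, 3 by DESeq2 and 0 by limma-voom. The 18 genes of Schwann cells and nerve had a median of -0.07 and 0 past edgeR's adjusted p, an unadjusted p under 0.05, DESeq2 or limma-voom. Of 16 genes of smooth muscle and pericytes 10 were above 0 and 6 below, with a median of 0.10. Myh11, the smooth muscle myosin, rose with 52.1, 47.4 and 58.9 normalized CPM in 1wk SBI and 83.5, 83.8 and 75.1 in 1wk SBI + Lac (log2 fold change 0.61, SE 0.10, adjusted p = 0.033, edgeR). Acta2, the smooth muscle actin, was on the other side with 97.9, 78.3 and 114 normalized CPM in 1wk SBI and 69.0, 68.7 and 78.6 in 1wk SBI + Lac (log2 fold change -0.42, SE 0.14, adjusted p = 0.109, edgeR), and its groups overlapped. Of 12 adipocyte genes Sncg, gamma-synuclein, was called higher with 7.96, 5.93 and 6.15 normalized CPM in 1wk SBI and 12.2, 12.2 and 17.3 in 1wk SBI + Lac (log2 fold change 1.06, SE 0.18, adjusted p = 0.033, edgeR). Adipoq, the defining adipokine, had 2.80, 2.25 and 3.76 normalized CPM in 1wk SBI and 0.955, 3.29 and 0.876 in 1wk SBI + Lac, and the groups overlapped. Of 4 keratinocyte genes edgeR passed 0, with 1 at an unadjusted p under 0.05, 1 by DESeq2 and 0 by limma-voom. The 73 entries for cytosolic ribosomal proteins had a median of 0.07, and edgeR passed 0, with 1 at an unadjusted p under 0.05, 1 by DESeq2 and 0 by limma-voom.

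Hemoglobin genes took a larger share of the counts in every lactating pool, 0.0327, 0.0313 and 0.0429% of counts in 1wk SBI and 0.0767, 0.0705 and 0.0583% in 1wk SBI + Lac. Of 12 red cell genes 10 were above 0 and 2 below, with a median of 0.52, and Hba-a1 and Hbb, the main alpha and beta globins, were called higher. Every lactating pool was the higher for 7 of the 12 (58.3%) and the lower for 1 (8.33%). The 12 include Sptb, with 323 to 400 normalized CPM in 1wk SBI and 492 to 564 in 1wk SBI + Lac. They also include Ank1, with 352 to 581 in 1wk SBI and 577 to 630 in 1wk SBI + Lac. Which cells carried the transcripts of Sptb and Ank1 was not tested. Hba-a1 had 159.9, 136 and 239 normalized CPM in 1wk SBI and 472, 435 and 332 in 1wk SBI + Lac (log2 fold change 1.21, SE 0.22, adjusted p = 0.0384, edgeR). Hba-a3 had 1.90, 2.92 and 4.98 normalized CPM in 1wk SBI and 7.39, 5.99 and 3.71 in 1wk SBI + Lac (log2 fold change 0.81, SE 0.37, adjusted p = 0.227, edgeR) with groups that overlapped, and Hbe1, an embryonic globin, had 4 reads in 1wk SBI replicate 1 and 0 in the other pools. The copies of the alpha globin gene are near-identical and share reads. Leaving the red cell, milk and mitochondrially encoded genes out of the library sizes gave 92 genes lower and 20 higher.

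The genes of 8 milk proteins, the caseins among them, were counted in lactating pools and in none of the non-lactating ones. Csn2 (ENSRNOG00000039326), beta-casein, had 8, 38 and 45 reads in the 1wk SBI + Lac pools and 0 in each 1wk SBI pool, at least 48.8-fold higher if the 3 non-lactating pools together are set at the 3 reads that a count of 0 allows. It was called higher (adjusted p = 0.0331, edgeR). Csn1s1, alpha-S1-casein, had 4, 35 and 48 reads against 0, at least 46.6-fold higher, and was too rare for the low-count filter. Without 1wk SBI replicate 1 these limits were 30.2 for Csn2 and 28.9 for Csn1s1, and without replicate 2 they were 31.2 and 29.8. Csn1s2a had 3, 1 and 14 reads against 0, at least 9.65-fold higher, but most of its reads were in 1wk SBI + Lac replicate 3, and without that pool the limit was 3.64. Without 1wk SBI replicate 1 or 2 it was 5.98 or 6.17. Csn3 (4, 3 and 4 reads), Wap (2, 5 and 6), Glycam1 (0, 5 and 9), Csn1s2b (0, 2 and 2) and Lalba (0, 0 and 4) were likewise at 0 in every non-lactating pool. Other genes of milk did not show this. Cel, a lipase, had 0, 4 and 0 reads in 1wk SBI and 3, 3 and 4 in 1wk SBI + Lac, Btn1a1, a protein of the milk fat globule, 1, 2 and 0 against 4, 0 and 0, Muc1, a mucin, 1, 5 and 12 against 0, 0 and 7, Pigr, which carries antibodies across epithelium, 0, 0 and 3 against 0, 1 and 3, and Slc34a2, a phosphate transporter, 0, 0 and 1 against 0, 0 and 1. Ltf and Lao1 were at 0 in all 6 pools, and Xdh, an enzyme that many tissues express, had 82.1, 92.9 and 82.6 normalized CPM in 1wk SBI and 96.7, 77.1 and 93.5 in 1wk SBI + Lac. The fold limits cover counting error only. The casein reads were few against library totals of 30862144 to 39844090, and 1wk SBI + Lac replicate 1 had the fewest for Csn2 and Csn1s1. Of the epithelial genes, Cdh1 had 0.675, 0.858 and 0.711 normalized CPM in 1wk SBI and 0.778, 0.986 and 0.696 in 1wk SBI + Lac, with groups that overlapped, and Krt8 had 0.952, 1.02 and 0.609 normalized CPM in 1wk SBI and 0.212, 0.475 and 0.206 in 1wk SBI + Lac, with every lactating pool the lower. The source of these reads was not tested.

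The promoters of the casein genes that had a match to the STAT5 site are shown because these genes were seen in lactating pools alone. In the GRCr8 build of RefSeq the windows of 250 bases before the starts of Csn2, Csn1s1, Csn1s2a and Csn3 lie between 20439831 and 20639099 of chromosome 14. Csn2 is at chr14:20601574-20601823 on the plus strand, Csn1s1 at chr14:20638850-20639099 and Csn1s2a at chr14:20574472-20574721, both on the minus strand. Each is written 5' to 3' on the strand of the gene, and capitals mark TTCNNNGAA, the letters that STAT factors read.
Csn2: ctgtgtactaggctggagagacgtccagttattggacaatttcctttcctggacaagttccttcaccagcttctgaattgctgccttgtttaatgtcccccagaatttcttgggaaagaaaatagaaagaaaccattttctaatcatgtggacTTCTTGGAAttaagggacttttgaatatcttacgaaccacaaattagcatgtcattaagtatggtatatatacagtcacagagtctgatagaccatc
Csn1s1: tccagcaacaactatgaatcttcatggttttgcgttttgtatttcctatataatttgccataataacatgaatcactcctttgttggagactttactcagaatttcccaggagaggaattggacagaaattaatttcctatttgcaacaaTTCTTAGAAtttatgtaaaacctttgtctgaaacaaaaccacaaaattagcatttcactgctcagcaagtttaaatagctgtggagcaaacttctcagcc
Csn1s2a: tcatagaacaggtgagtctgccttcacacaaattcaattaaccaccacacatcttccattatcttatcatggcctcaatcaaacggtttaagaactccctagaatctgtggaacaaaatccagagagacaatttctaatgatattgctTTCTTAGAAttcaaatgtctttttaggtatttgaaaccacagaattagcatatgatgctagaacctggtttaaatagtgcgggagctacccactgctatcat
The first base of the match is 97, 100 and 102 bases before the start in Csn2, Csn1s1 and Csn1s2a. Both strands were searched, the match overlapped no other motif searched, and 7.67% of 33469 promoters of this length hold one. Glycam1 had a match 175 bases before its start, and the windows of Csn3 and Wap had none, which says only that the letters are not in these windows.

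**Figure D5:**
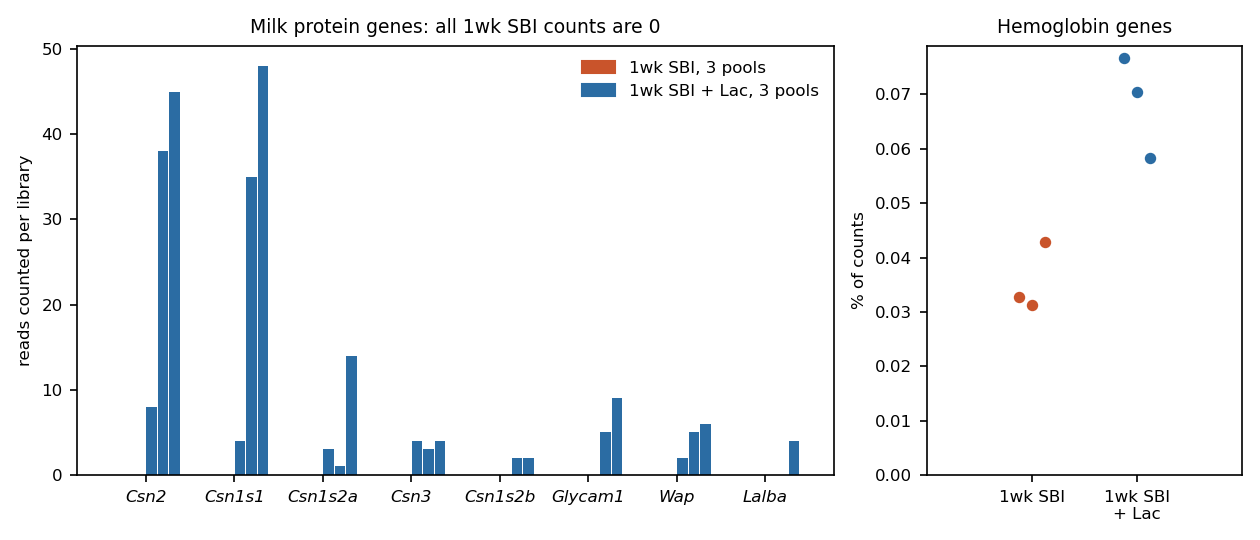
Left, reads counted for 8 milk protein genes in each pool, with all 1wk SBI counts at 0 and up to 48 reads (Csn1s1) in 1wk SBI + Lac. Right, the percentage of counts in hemoglobin genes, 0.0327, 0.0313 and 0.0429% in the 1wk SBI pools and 0.0767, 0.0705 and 0.0583% in the 1wk SBI + Lac pools.

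A further pair of genes had counts in the lactating pools alone. Zfp300, a zinc finger gene, had 18, 35 and 14 reads against 0 in each non-lactating pool, at least 35.9-fold higher, or 22.3 without 1wk SBI replicate 1 and 23 without replicate 2. One of the entries named Txndc9 had 28, 9 and 24 reads against 0, at least 32.7-fold higher, or 20.3 and 20.9 without these pools, while the other entry of that name had 1328, 1234 and 877 reads in 1wk SBI and 581, 568 and 826 in 1wk SBI + Lac, and near-identical copies can divide reads between entries. Among called genes with a symbol, at least 1 CPM in a group and no overlap the largest rise was that of Mc5r, a receptor for melanocortins, at 2.79, 3.14 and 1.80 normalized CPM in 1wk SBI and 15.7, 8.99 and 5.62 in 1wk SBI + Lac (log2 fold change 1.95, SE 0.38, adjusted p = 0.0483, edgeR). The 3 lactating pools of Mc5r differed widely and its adjusted p was 0.169 without 1wk SBI replicate 1. Slc15a2, a peptide transporter, rose with 2.15, 1.88 and 2.62 normalized CPM in 1wk SBI and 4.10, 5.81 and 6.13 in 1wk SBI + Lac (log2 fold change 1.28, SE 0.22, adjusted p = 0.033, edgeR). Asb11, a substrate adaptor of a ubiquitin ligase, and Lvrn, an aminopeptidase, were called higher at log2 fold changes of 1.16 and 1.23. Ppp1r1a, an inhibitor of protein phosphatase, had 116, 107 and 159 normalized CPM in 1wk SBI and 278, 278 and 213 in 1wk SBI + Lac (log2 fold change 1.01, SE 0.17, adjusted p = 0.033, edgeR). Of the 110 genes called 5 had no symbol, and 1 of these, ENSRNOG00000062617, rose further than Mc5r with 9.36, 6.74 and 14.8 normalized CPM in 1wk SBI and 40.3, 49.0 and 46.7 in 1wk SBI + Lac (log2 fold change 2.15, SE 0.26, adjusted p = 0.0301, edgeR).

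The 21 genes that the study names for this time point were chosen on these samples, so their counts are a description. In the present fit 17 were below 0 and 4 above, 4 were called lower (Irf8, Vcam1, Itgal and Clec7a) and Nfil3 higher. The 20 of them without overlap between groups included Cd8b, with 1.00, 0.730 and 0.838 normalized CPM in 1wk SBI and 0.141, 0.365 and 0.129 in 1wk SBI + Lac (log2 fold change -2.04, SE 0.50, adjusted p = 0.0631, edgeR), and Alox15, a lipoxygenase, with 0.623, 0.438 and 0.609 normalized CPM in 1wk SBI and 1.17, 2.52 and 1.19 in 1wk SBI + Lac (log2 fold change 1.53, SE 0.40, adjusted p = 0.073, edgeR). DESeq2 called 17 lower and 3 higher.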

How the data were processed

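Pubocaudalis RNA of the 2 groups was sequenced as 3 pools of 2 rats each (stranded, polyadenylated RNA). The 1-week columns deposited by the authors hold whole counts per gene, not normalized. The 3-week columns deposited by the authors hold estimated counts with decimals, which were rounded and used only in 1 alternative and in the comparison of the 1-week with the 3-week effect. Salmon is named, without a version, in the submitters' processing notes. The aligner, build and annotation of the counts are not given in the sources used here. Of 30206 identifiers 4319 had no symbol, and 0 rows named no gene. By the labels each pool holds other rats, and the pools were treated as separate samples although the paper's legend calls them technical replicates.

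Counts of the 6 libraries were tested with edgeR 4.0.16 (R 4.3.3): TMM scaling, the filterByExpr filter, a robust quasi-likelihood fit with 4 residual degrees of freedom and Benjamini-Hochberg adjustment over 14311 genes, and a gene was called at an adjusted p below 0.05 with a log2 fold change beyond 1 in either direction. SE is the log2 fold change over the root of the F statistic. Total counts ran from 30862144 to 51662983 per library. Principal components used log2 CPM with a prior count of 2. Folds against groups at 0 used a limit of 3 counts over the group.

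Members and the 42 gene lists were chosen with earlier results of these data known. Named were, per direction, the 10 largest changes among called genes with a symbol, at least 1 CPM in a group and no overlap, the genes the study names, the members of each list that were called (at most 6) or had the smallest p (up to 4 in all), the muscle markers, and every milk and hemoglobin gene with a count. Genes named outside this rule were chosen after their values were seen: Abcg1, Acta1, Actc1, Adam12, Adipoq, Cd3e, Cd74, Cebpd, Chrna1, Ciita, Cirbp, Ckm, Col1a1, Csf1r, Fbxo32, Foxp3, Hmox1, Igf1, Kif4a, Klf15, Ly49si2, Mmp14, Mymk, Myh3, Myh8, Myod1, Myog, Nfkbia, Nr3c1, Pax7, Pdk4, Per1, Plk4, Ppp1r1a, Prlr, Selplg, Tnn, Trem2, Trim63, Tsc22d3, Txndc9, Zbtb16 and Zfp300, and 3 entries with no symbol (ENSRNOG00000062617, ENSRNOG00000063720 and ENSRNOG00000066013). Promoters are the 250 bases before RefSeq starts in GRCr8, and 74 of 105 called genes with a symbol had one.

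In counts simulated for this comparison over 14118 genes, 90 of 98 genes changed by a log2 of 1.5 (91.8%) and 99 of 99 changed by 3 were called with the right sign, along with 5 unchanged genes. Each simulated gene was drawn independently, with no difference shared by the genes of a pool. These shares therefore check the procedure and do not give the power or error rate of the real pools. Alternatives were RLE and upper-quartile scaling, DESeq2 1.42.0, limma 3.58.1 (voom), all 12 libraries, other filters and cutoffs, a replicate block, each library left out, other library sizes, thinning to equal depth and no robust estimation. GO terms were not analysed here. Leaving out pools for the fold limits and for the calls of each list was an alternative chosen after seeing the data.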

Additional observations from a re-analysis of the deposited data

Results flagged for a closer look

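The lactation effect of 1 gene differed between 1 and 3 weeks. Sncg, gamma-synuclein, had a log2 fold change of 1.06 (lactating over non-lactating) at 1 week and of -1.45 at 3 weeks in an edgeR quasi-likelihood fit of all 12 libraries. The difference between the effects was 2.51 on the log2 scale (adjusted p = 0.000618, edgeR), the 1 of 14599 genes tested for such a difference that passed an adjusted p of 0.05. The 3-week values are expected counts that were rounded, whereas the 1-week values are whole counts. In the 1-week contrast alone Sncg kept both cutoffs in 1 of 6 fits with a pool removed.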

How the results depend on the processing

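With all 6 libraries 90 genes were called lower and 20 higher in 1wk SBI + Lac, and every one of these 110 genes that an alternative tested kept its direction. Other scaling, other library sizes, thinning, no robust estimation and a minimum of 10 counts in every library gave 75 to 92 genes lower and 16 to 20 higher. DESeq2 gave 288 lower and 44 higher, limma-voom 37 lower, the fit of all 12 libraries 24 lower and 13 higher, and no low-count filter 160 lower. An adjusted p under 0.05 with no fold cutoff gave 192 lower and 84 higher, and an adjusted p under 0.1 with the fold cutoff 256 and 37. With each library left out in turn the counts ran from 0 to 350 lower and from 0 to 74 higher. With the replicate number as a block edgeR called 0 lower and 0 higher genes, at an unadjusted p under 0.05 for 2538 genes. By the labels the same number names different rats in the groups. The deviations of pools with the same number correlated at -0.10, -0.17 and -0.17, and no library correlated best with its own number. These deviations are from the mean of the 3 pools of a group, which ties the values to each other. Whether pools of the same number shared a preparation step was not tested. Of the single-gene results under the alternatives 3694 kept their side of the cutoffs, 407 lost it, 125 gained it and 0 reversed. A change of sign was counted as reversed only for a gene called in the main fit or in the alternative. Genes called in neither could change sign and count as kept. Prlr, for example, ran from -0.43 to 0.67 with a pool left out. With 3 pools a group and 4 residual degrees of freedom, a fit that leaves out a library has 3 left, and genes with few counts, such as Mmp12, Mmp9, Foxm1 and the milk genes, have poorly set sizes.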
